A study of Mus musculus with 6 samples.

Results

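The 10 genes followed here belong to the BCL2 family and were measured in mammary glands after long-term metformin treatment: the pro-survival genes Bcl2, Bcl2l1 and Mcl1, the effectors Bax and Bak1, and the BH3-only genes Bmf, Bcl2l11, Bbc3, Bid and Bad. They were picked by symbol from this family, with earlier results of these data known, and all 10 were found among 25160 features of the count table and among the 15925 features that had enough counts to be tested. Transcripts were measured by RNA sequencing of oligo(dT)-selected RNA from whole #4 inguinal glands whose lymph nodes had been removed, 1 library per mouse. The metformin group held 3 WT female FVB/N mice that received metformin at 200 mg/kg per day intraperitoneally from 8 weeks to 18 weeks of age, a treatment of 10 weeks. The control group held 3 WT female FVB/N mice of the same ages that received saline, and both groups ate an estrogen-free AIN-93G diet. FVB/N is an inbred mouse strain. A whole gland holds luminal and basal epithelium, adipocytes, fibroblasts, vessels and leukocytes, so fewer cells of a type and less RNA per cell cannot be told apart in these libraries.

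BCL2 family proteins decide whether the outer mitochondrial membrane stays intact. Pro-survival proteins bind and hold back the effectors BAX and BAK, which otherwise form pores and release cytochrome c, and BH3-only proteins occupy the groove of the pro-survival proteins or activate the effectors directly. In the mammary gland this balance is known from the clearing of cells from the duct lumen and from the loss of milk-producing epithelium after weaning, and BMF and BIM, the product of Bcl2l11, are the BH3-only proteins linked to the death of epithelial cells that lose contact with the matrix.

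The family shares the BH3 motif, the helix through which its members bind each other. The coding stretch around its core is shown for the 3 BH3-only genes whose levels differed most between the groups and for 1 gene each of the other classes, because it is the feature that places such different genes in 1 family. Each stretch is 48 bases of a GENCODE vM21 coding transcript (GRCm38), read in frame from 5′ to 3′, and the capitals mark the 18 bases that encode the core of leucine, 2 residues of any kind, a hydrophobic residue, a small residue and aspartate.
Bmf: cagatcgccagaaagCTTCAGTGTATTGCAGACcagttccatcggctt
Bcl2l11: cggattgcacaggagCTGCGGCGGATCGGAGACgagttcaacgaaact
Bad: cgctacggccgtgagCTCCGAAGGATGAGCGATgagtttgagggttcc
Bax: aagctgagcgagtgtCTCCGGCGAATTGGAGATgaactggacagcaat
Mcl1: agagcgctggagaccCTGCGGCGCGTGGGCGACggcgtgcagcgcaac
The Bmf stretch lies at chr2:118545094-118545141 on the minus strand, the Bcl2l11 stretch at chr2:128147135-128147182 on the plus strand and the Bad stretch at chr19:6950777-6950824 on the plus strand. The Bax stretch lies at chr7:45465991-45466038 on the minus strand and the Mcl1 stretch at chr3:95659421-95659468 on the plus strand. Each of the 5 stretches lies within 1 coding exon. For each gene the longest coding transcript that holds the core was used, and the core occurs exactly 1 time in it for all 10 genes. Not every coding transcript holds the core, as with Bbc3, where 1 of 3 does. Bmf and Bcl2l11 shared 27 of 48 bases and 12 of the 18 core bases, against 21 and 8 for Bmf and Bad and 26 and 11 for Bcl2l11 and Bad. This likeness was not particular to Bmf and Bcl2l11. Bcl2l11 shared 29 and 15 bases with Bbc3, and Bmf shared 12 core bases with Bbc3 and with Bax too.

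The libraries held between 37705492 and 47370885 counts in the metformin group and between 35375365 and 47056181 in the control group. Levels are given as CPM, counts divided by library size and scaled by TMM normalization, which sets the libraries against each other, and fold changes as log2 of metformin over control with their standard error (SE). A gene is called past the thresholds when it changed at least 1.5-fold with an unadjusted p under 0.01 in the edgeR quasi-likelihood test. The study states the same limits but applied them with DESeq2. Of the 15925 features tested 271, or 1.7%, passed them, 204 lower and 67 higher with metformin, and at an adjusted p under 0.05 edgeR called 0. With edgeR, 1199 features had an unadjusted p under 0.05, and DESeq2 called 200 features at an adjusted p under 0.05. Control mouse 3 stood apart from the other control mice: on the first principal component, which held 34.8% of the variance, it lay at -24.8 beside metformin mice at -35.9, -33.5 and -14.8, while control mice 1 and 2 lay at 48.3 and 60.8. The summed milk protein transcripts were 219, 272 and 696 CPM in metformin mice and 29386, 26584 and 508 CPM in control mice, so the sum of control mouse 3 was within the metformin range. Csn3 was an exception, with 161, 173 and 224 CPM in metformin mice and 3139, 3517 and 342 CPM in control mice. The label of control mouse 3 was kept as given. Because metformin removes no gene whose level could check a label, whether that label is right was not tested, and every control mean and fold change here depends on it. Where this mouse decided a call or moved the log2 fold change of a member or related gene by over 1.5 times, the value without it is also given. For Tradd, named below, that value is not given.

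Within the glands the members differed widely in level. Because longer transcripts give more counts, genes were set against each other only in the deposited FPKM values, which are scaled by length. The order of the mean FPKM over the 6 libraries was Mcl1 (53.9), Bax (24.7), Bcl2l1 (21.9), Bad (17.4), Bak1 (9.44), Bmf (7.78), Bid (5.30), Bbc3 (4.47), Bcl2l11 (3.54) and Bcl2 (2.14). Among neighbours in this order, the ranges over the 6 libraries separated only Mcl1 from Bax and Bad from Bak1. Mcl1, which encodes a short-lived pro-survival protein, was above every other member in each library, and Bcl2, which gave the family its name, had the lowest mean.

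**Figure D1:**
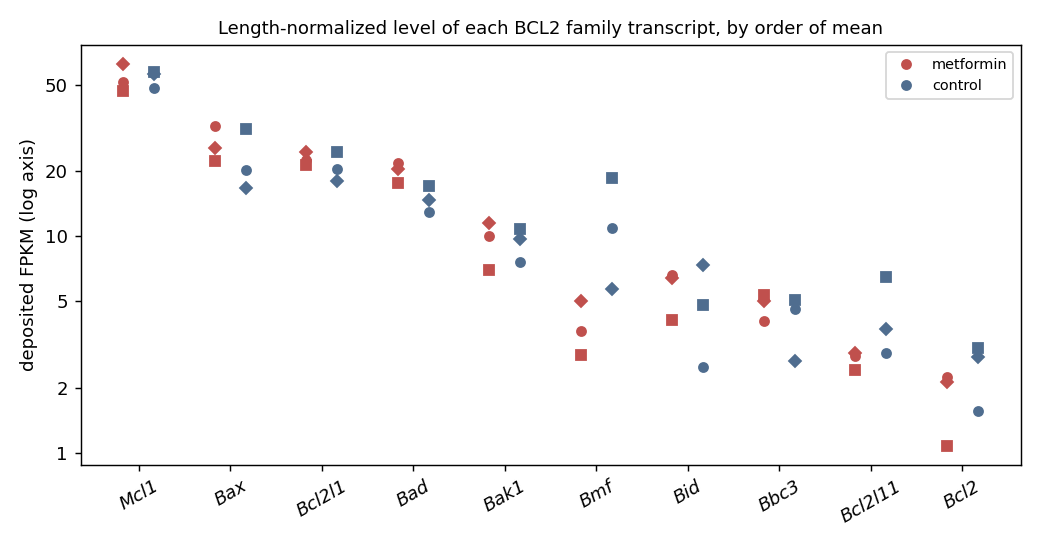
FPKM of the 10 BCL2 family genes on a log axis, in order of their mean, with 1 point per mouse (circle, square and diamond for mice 1, 2 and 3), metformin left of control within each gene. Mcl1 averaged 53.9 FPKM and Bcl2 2.14 FPKM, and Bmf is the gene whose control points spread furthest above its metformin points.

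Summed by role in FPKM, the groups overlapped in each class. The pro-survival genes summed to 78.5 ± 10.0 FPKM in metformin mice and 77.5 ± 7.38 FPKM in control mice (SD, n = 3 each). The effectors summed to 36.3 ± 6.71 FPKM in metformin mice and 32.1 ± 8.67 FPKM in control mice. The BH3-only genes summed to 37.0 ± 4.05 FPKM in metformin mice and 40.0 ± 10.4 FPKM in control mice. In each class the difference between the means was smaller than the SD of either group.

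Between metformin and control, 1 of the 10 members passed the thresholds, Bmf, and it was lower with metformin. Among all features tested, 1.28% passed in that direction. Of the other members 0 passed in either direction, and 0.421% of all features passed in the higher direction. At an adjusted p under 0.05 edgeR called 0 of the 10 members, while DESeq2 called Bmf and 1.26% of all features. Bmf also passed the thresholds with DESeq2, in which 3.26% of all features passed, 2.48% in the lower direction. The study, which used DESeq2 on these data, lists Bmf among its differentially expressed genes, so the call is not independent of it. At an unadjusted p under 0.05 in edgeR, Bmf and Bcl2l11 were lower and Bad was higher, 3 of 10 members beside 7.53% of all features, of which 4.85% were lower and 2.68% higher. For the same 3 genes the metformin and control CPM did not overlap, beside 13.2% of all features, of which 7.01% were lower and 6.24% higher. By sign alone, 3 members were lower and 7 higher, with a median log2 fold change of 0.16, against 0.01 over all features tested.

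**Figure D2:**
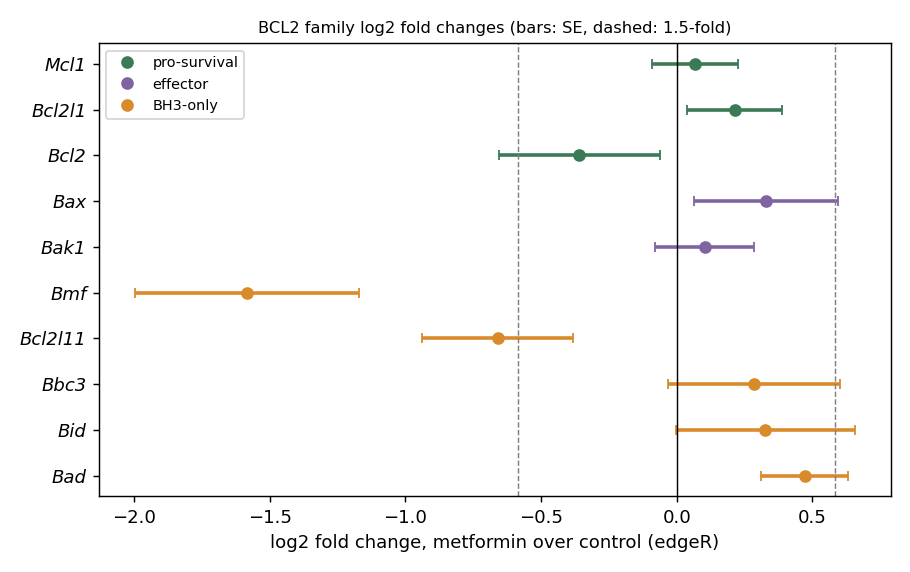
edgeR log2 fold change of each member, metformin over control, with its SE, coloured by role, where dashed lines mark a 1.5-fold change. Bmf at -1.58 lies apart from the other members, which range from -0.66 for Bcl2l11 to 0.47 for Bad.

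The 3 pro-survival genes had 0 members past the thresholds. Mcl1, whose loss kills many cell types, had 195, 196 and 217 CPM in metformin mice and 192, 202 and 187 CPM in control mice, and its log2 fold change was 0.07 with an SE of 0.16 (edgeR adjusted p = 0.932). Mcl1 also varied little within each group, by a coefficient of variation of 6.12% in metformin mice and 4.06% in control mice. Bcl2l1, which encodes BCL-XL, had 61.7, 65.3 and 61.4 CPM in metformin mice and 57.1, 62.6 and 42.8 CPM in control mice. The metformin mice lay within 1.06-fold of each other for Bcl2l1, and control mouse 3 was the lowest library, with a log2 fold change of 0.21 (SE 0.17, edgeR adjusted p = 0.797) that became 0.07 without that mouse. Bcl2 had 17.8, 9.41 and 15.4 CPM in metformin mice and 12.8, 22.5 and 19.2 CPM in control mice. For Bcl2, 558 of 9157 exonic bases lie in exons of the antisense gene D630008O14Rik. The groups overlapped, and the log2 fold change of -0.36 had an SE of 0.30 (edgeR adjusted p = 0.799).

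The effectors, which form the pores, also had 0 members past the thresholds. Bax had 35.0, 26.3 and 25.5 CPM in metformin mice and 22.3, 31.0 and 15.7 CPM in control mice, a log2 fold change of 0.33 with an SE of 0.26 (edgeR adjusted p = 0.797). Control mouse 3 was again the lowest library, and without it the Bax value was 0.12. Bak1 had 26.5, 20.4 and 27.8 CPM in metformin mice and 21.1, 26.6 and 21.7 CPM in control mice, a log2 fold change of 0.10 with an SE of 0.18 (edgeR adjusted p = 0.902). For both genes the ranges of the groups overlapped. Without control mouse 3 the Bak1 value was 0.06. In the annotation 614 of 2407 exonic bases of Bak1 lie in exons of Ggnbp1 on the opposite strand, and whether the counting used strand is not given in the sources used here, so reads from that stretch cannot be told apart. Bax shares 192 of 1576 exonic bases with Gm45808 on its own strand, and Gm45808 held 2, 1 and 2 counts in metformin mice and 0 counts in each control mouse, beside 643 to 1573 counts for Bax.

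**Figure D3:**
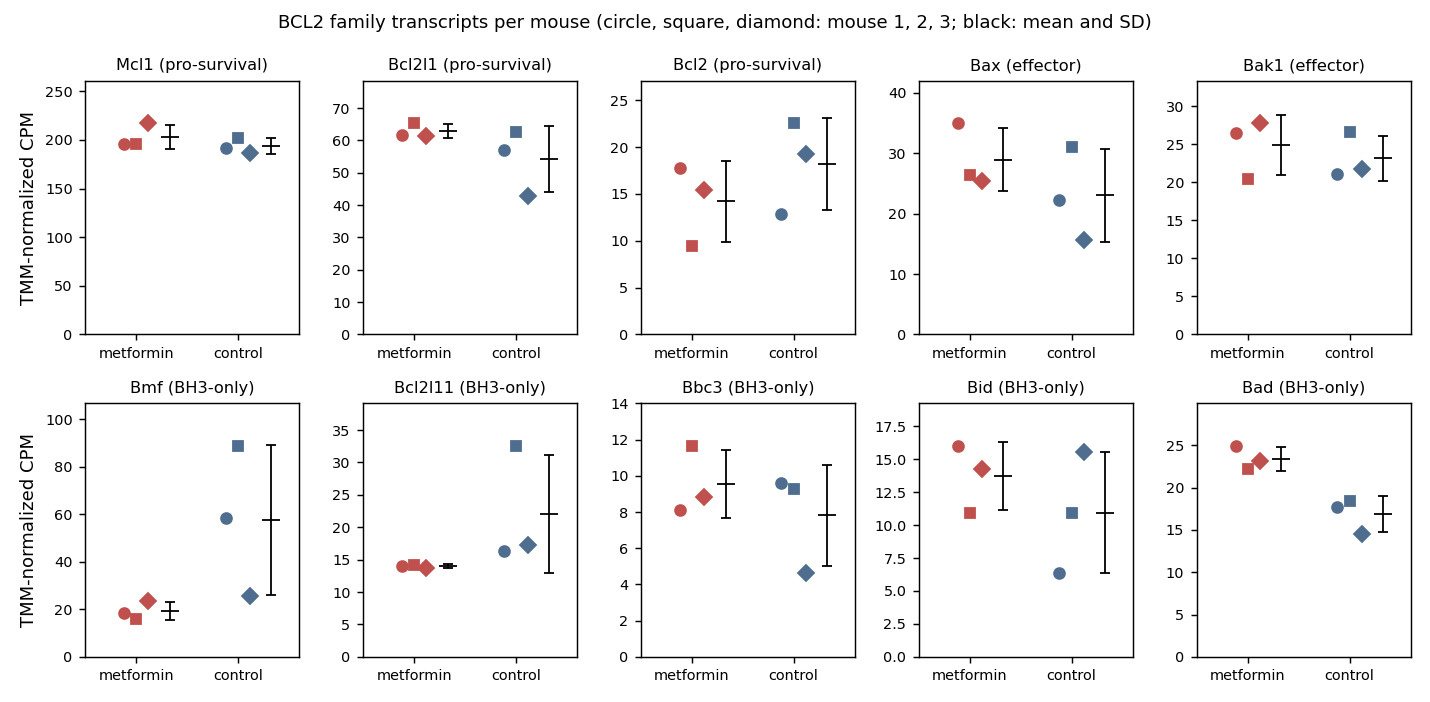
TMM-normalized CPM of each member, 1 panel per gene, with 1 point per mouse, metformin left of control, and the group mean with its SD. For Bmf and Bcl2l11 the 3 metformin points lie below the 3 control points and for Bad above them, while the points of the other 7 genes overlap.

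Bmf was the member with the clearest difference. It encodes a BH3-only protein that is held at the cytoskeleton and released when cells lose attachment, and the gene lies at chr2:118528757-118549687 on the minus strand (GRCm38), with 0 exonic bases shared with another gene. Bmf had 18.3, 15.9 and 23.5 CPM in metformin mice and 58.6, 88.8 and 25.8 CPM in control mice. All 3 metformin mice were below all 3 control mice, but the gap between metformin mouse 3 and control mouse 3 was small. The means were 19.3 ± 3.87 CPM in metformin mice and 57.7 ± 31.5 CPM in control mice (SD, n = 3 each), a fold of 0.333 and a log2 fold change of -1.58 with an SE of 0.41. By unadjusted p in edgeR Bmf ranked 158 among all features tested, its adjusted p was 0.539, and DESeq2 gave an adjusted p of 0.0209.

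The spread of Bmf lay in the control group. Its coefficient of variation was 20.1% in metformin mice and 54.6% in control mice, and the highest control mouse had 3.45 times the level of the lowest, against 1.48 times among metformin mice. Without control mouse 3 the log2 fold change was -1.93 with an SE of 0.24, and edgeR gave an adjusted p of 0.0351. In that fit of 16406 features, 4.06% passed the thresholds, 3.19% in the lower direction, and 0.585% had an adjusted p under 0.05, 0.573% in the lower direction. With control mouse 3 as the only control the value was -0.42 (SE 0.28, edgeR adjusted p = 0.616), where the spread came from the metformin mice and a lone control is taken to vary as they do. Bmf did not pass the thresholds when any of the other 5 mice was left out: the log2 fold change was -1.57 without metformin mouse 1, -1.46 without metformin mouse 2, -1.75 without metformin mouse 3, -1.57 without control mouse 1 and -1.13 without control mouse 2. The direction was lower with metformin under all 20 alternatives, of which 10 passed the thresholds, with adjusted p from 0.0209 to 0.877.

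Epithelial markers differed among themselves. Of 6 luminal markers 5 had a lower sign with metformin and 1, Cdh1, passed the thresholds, and their summed level was 859, 547 and 672 CPM in metformin mice and 778, 1421 and 862 CPM in control mice. Cdh1, the epithelial cadherin, had 49.2, 49.3 and 45.8 CPM in metformin mice and 62.2, 121 and 77.0 CPM in control mice, a log2 fold change of -0.85 (SE 0.25, edgeR adjusted p = 0.541). When 1 mouse at a time was left out, Cdh1 kept the call only without control mouse 1, at -1.04, and lost it without metformin mouse 1 (-0.90), metformin mouse 2 (-0.87), metformin mouse 3 (-0.82), control mouse 2 (-0.53) or control mouse 3 (-0.93). None of the 6 was at 0 in a library. Of 4 basal markers 2 had a lower and 2 a higher sign and 0 passed the thresholds. Their sum was 309, 104 and 181 CPM in metformin mice and 128, 263 and 137 CPM in control mice. Oxtr was its largest part in every library, at 240, 51.1 and 115 CPM in metformin mice and 52.6, 107 and 77.4 CPM in control mice. The log2 fold changes were -0.75 (SE 0.37) for Krt5, -0.77 (SE 0.35) for Krt14, 0.07 (SE 0.32) for Krt17 and 0.78 (SE 0.52) for Oxtr. All 6 adipocyte markers had a higher sign, 0 of them passed the thresholds, and their sum was 12847, 13571 and 9955 CPM in metformin mice and 8935, 8321 and 10656 CPM in control mice. All 4 milk protein genes tested had a lower sign and 3 of them passed the thresholds. Wap, the fifth, was not tested and had 0.07, 0.14 and 0 CPM in metformin mice and 661, 270 and 0 CPM in control mice. The 4 B cell markers summed to 1.33, 2.31 and 6.76 CPM in metformin mice and 7.21, 13.7 and 2.00 CPM in control mice.

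Set against the epithelial markers within each library, the Bmf groups overlapped. Bmf per Cdh1 was 0.373, 0.323 and 0.513 in metformin mice and 0.942, 0.733 and 0.335 in control mice. Bmf per summed luminal markers was 0.0213, 0.0291 and 0.0350 in metformin mice and 0.0753, 0.0625 and 0.0299 in control mice. For both ratios control mice 1 and 2 were above all metformin mice and control mouse 3 was among them. With the mean of the epithelial markers as a covariate, the log2 fold change of Bmf was -1.22 (SE 0.40, edgeR adjusted p = 0.877). With that of the adipocyte markers it was -0.28 (SE 0.36, edgeR adjusted p = 0.840), and Bmf passed the thresholds in neither fit. The adipocyte mean was 10.3, 10.2 and 10.0 log2 CPM in metformin mice and 9.54, 9.57 and 10.1 in control mice. It set control mice 1 and 2 apart, as Bmf did, so this fit cannot separate fat content from that split of the mice. The part of tissue make-up and of milk-producing cells in the Bmf result was not tested further.

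The genes whose profile over the 6 libraries was nearest to Bmf were found by the root mean square difference of log2 CPM centred on each gene's mean, among 13326 annotated genes with a mean of at least 1 CPM. The nearest was 0610040J01Rik, at 0.0771, followed by Tnfrsf11a (0.150), which encodes the receptor RANK, Cldn1 (0.150), which encodes a tight junction protein, Clca3a2 (0.154) and Trf (0.167), which encodes transferrin. Their log2 fold changes ran -1.46, -1.31, -1.63, -1.76 and -1.61. Trf shares 2108 of its 3320 exonic bases with Gm20425, so its level is uncertain. These genes were picked for their likeness to Bmf in the same libraries, and their fold changes are a description. In each of them control mice 1 and 2 were the highest libraries, and control mouse 3 lay near the metformin mice.

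**Figure D4:**
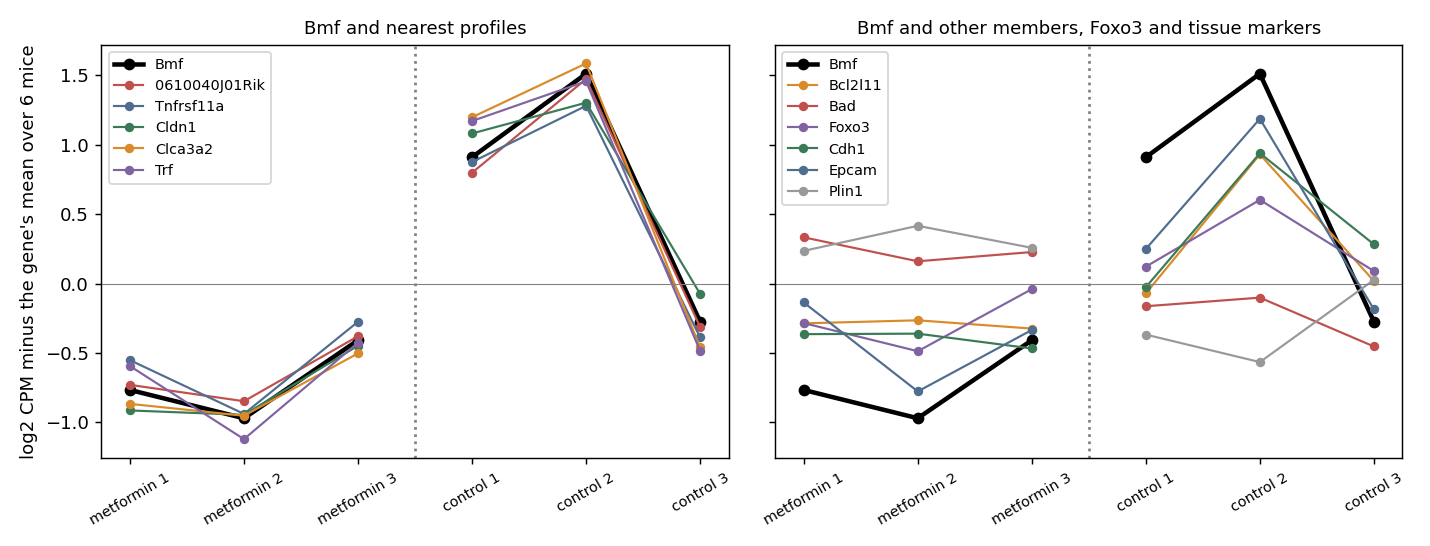
log2 CPM in each mouse minus the gene's mean over 6 mice, for Bmf with its 5 nearest profiles (left) and for Bmf with Bcl2l11, Bad, Foxo3, Cdh1, Epcam and Plin1 (right), where lines only join points of 1 gene within a group. Control mouse 3 lies near the metformin mice for Bmf and its nearest profiles, and Plin1, an adipocyte marker, and Bad lie above their mean in all 3 metformin mice.

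Bcl2l11, which encodes BIM, the BH3-only protein that binds all pro-survival members, was also lower with metformin but did not pass the thresholds. The gene lies at chr2:128126038-128162547 on the plus strand and shares 0 exonic bases with another gene. Bcl2l11 had 14.0, 14.2 and 13.7 CPM in metformin mice and 16.3, 32.6 and 17.3 CPM in control mice. The metformin mice were close together, with a coefficient of variation of 2.08%, against 41.4% in control mice, and control mouse 2 was far above the others. The log2 fold change was -0.66 with an SE of 0.28 (edgeR adjusted p = 0.658). Leaving out control mouse 2 gave -0.27 (SE 0.17, edgeR adjusted p = 0.856), and leaving out control mouse 3 gave -0.81 (SE 0.29, edgeR adjusted p = 0.379). In FPKM the groups overlapped, with 2.81, 2.43 and 2.90 in metformin mice and 2.88, 6.48 and 3.71 in control mice.

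Set against the epithelial markers, Bcl2l11 did not separate below the control mice in any ratio. Bcl2l11 per Cdh1 was 0.285, 0.289 and 0.299 in metformin mice and 0.262, 0.269 and 0.225 in control mice, so the ratio was higher in all 3 metformin mice, while per Epcam, per Krt8 and per summed luminal markers the groups overlapped. Cdh1 itself was lower in all 3 metformin mice, which raises a ratio to it. With the epithelial covariate the log2 fold change of Bcl2l11 was -0.32 (SE 0.23, edgeR adjusted p = 0.877).

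Bad, the BH3-only gene whose product is kept inactive by phosphorylation downstream of growth factor signalling, went the other way. It lies at chr19:6941861-6951899 on the plus strand. Bad had 24.9, 22.1 and 23.2 CPM in metformin mice and 17.7, 18.5 and 14.5 CPM in control mice. All 3 metformin mice were above all 3 control mice, and the spread was small in both groups, with coefficients of variation of 6.06% in metformin mice and 12.5% in control mice. The log2 fold change was 0.47 with an SE of 0.16 (edgeR adjusted p = 0.604), a fold of 1.39 that is below the fold threshold. Without control mouse 3 it was 0.38 (SE 0.15, edgeR adjusted p = 0.433), and with that mouse as the only control it was 0.69 (SE 0.22, edgeR adjusted p = 0.474). Under the 20 alternatives it was higher with metformin each time and passed the thresholds in 0 of them. Per Cdh1, Epcam, Krt8 and summed luminal markers, Bad was higher in all 3 metformin mice than in any control mouse. Cdh1 itself was lower in all 3 metformin mice, and Epcam and Krt8 had log2 fold changes of -0.93 and -0.63. Lower denominators raise these ratios even for a gene that does not change, so the ratios are a description only.

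A neighbour overlaps Bad. Of its 2558 exonic bases, 524 lie in exons of Gpr137 on the opposite strand, and reads of the stretch cannot be assigned without strand. Gpr137 had 31.1, 43.6 and 32.3 CPM in metformin mice and 29.9, 26.2 and 18.9 CPM in control mice, again without overlap, with a log2 fold change of 0.51 (SE 0.22, edgeR adjusted p = 0.661). The share of Bad reads that came from Gpr137 was not tested, so the level of Bad is uncertain.

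The remaining BH3-only genes did not separate the groups. Bbc3, which encodes the p53 target PUMA, had 8.14, 11.7 and 8.84 CPM in metformin mice and 9.59, 9.29 and 4.62 CPM in control mice, a log2 fold change of 0.29 (SE 0.32, edgeR adjusted p = 0.843). Control mouse 3 was the lowest library, and without it the Bbc3 value was 0.02. Bid, whose product is cleaved by caspase-8 and links death receptors to mitochondria, had 16.0, 10.9 and 14.3 CPM in metformin mice and 6.36, 10.9 and 15.6 CPM in control mice. Its log2 fold change of 0.33 had an SE of 0.33 (edgeR adjusted p = 0.832). It was 0.67 without control mouse 3 and 0.06 without control mouse 1, the lowest library for Bid. For Bid, 628 of 3550 exonic bases lie in exons of Bcl2l13 on the opposite strand, so its level is uncertain too.

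**Figure D5:**
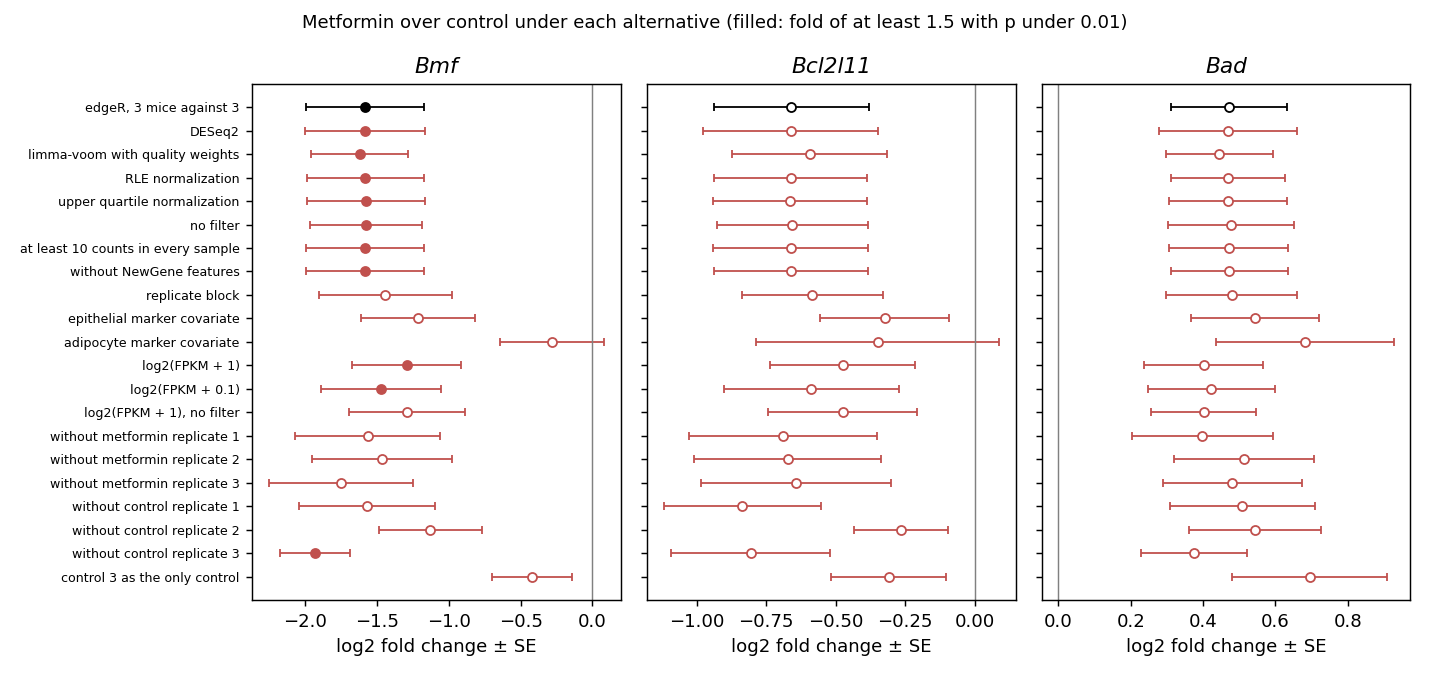
log2 fold change of Bmf, Bcl2l11 and Bad, metformin over control, under the main edgeR fit and 20 alternative fits. Bmf ranges from -1.93 without control mouse 3 to -0.28 with the adipocyte covariate, Bcl2l11 from -0.84 to -0.27 and Bad from 0.38 to 0.69.

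Other genes of the pathway were taken from 4 lists with 63 genes, all of which were tested. With edgeR 0 of the 63 passed the thresholds, beside 1.7% of all features, and 1 had an unadjusted p under 0.05, beside 7.53% of all features. By sign 37 were lower and 26 higher with metformin, with a median log2 fold change of -0.03, against 0.01 over all features. The CPM ranges of the groups did not overlap for Cflar and Foxo3, which were lower, and Fadd, which was higher, 3 of 63 genes beside 13.2% of all features (7.01% lower, 6.24% higher).

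Among 14 other BCL2 family genes 7 had a lower and 7 a higher sign, with a median log2 fold change of 0.03. Bcl2l15 had 0.49, 0.60 and 1.15 CPM in metformin mice and 4.47, 5.32 and 0.20 CPM in control mice, a log2 fold change of -2.15 (SE 0.98, edgeR adjusted p = 0.681). Control mouse 3 was the lowest library of all 6 for Bcl2l15, and without it the log2 fold change was -2.71 (SE 0.46, edgeR adjusted p = 0.0806), past the thresholds. Bcl2l10 was at low levels, at 1.79 ± 0.654 CPM in metformin mice and 0.836 ± 0.360 CPM in control mice (SD, n = 3 each), a log2 fold change of 1.10 (SE 0.48, edgeR adjusted p = 0.663). Bnip3, which encodes a mitophagy receptor, and Bcl2l14 had log2 fold changes of 0.23 and -0.37, and Bnip3 was at 0.45 without control mouse 3. Exons of Bcl2l15 overlap those of Gm43064, and exons of Bnip3 and Bcl2l14 those of antisense genes, so these levels are uncertain.

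Downstream of the mitochondria, the 17 genes of the apoptosome and caspases had a median log2 fold change of -0.03, with 9 lower and 8 higher by sign. The smallest p in that list belonged to Endog, a mitochondrial nuclease, at 0.79 (SE 0.50, edgeR adjusted p = 0.765), then Casp2, an initiator caspase, at -0.38 (SE 0.24, edgeR adjusted p = 0.765). Endog was at 0.41 without control mouse 3 and 0.33 without metformin mouse 2, and Casp2 at -0.14 without control mouse 2. Xiap, which encodes a caspase inhibitor, was at -0.29, or -0.11 without control mouse 3, and Diablo, which encodes its antagonist, at 0.29. Exons of Diablo overlap those of B3gnt4 and Gm49027 and exons of Endog those of Spout1, which leaves these 2 levels uncertain.

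The 10 death receptor genes had a median log2 fold change of -0.02. Cflar, which encodes the caspase-8 inhibitor c-FLIP, had 65.7, 61.9 and 61.5 CPM in metformin mice and 70.7, 71.0 and 97.9 CPM in control mice. Its log2 fold change was -0.34 (SE 0.17, edgeR adjusted p = 0.722), and the highest level was in control mouse 3, without which the value was -0.17. Fadd, the adaptor that recruits caspase-8, had 10.8, 11.9 and 13.5 CPM in metformin mice and 8.65, 10.5 and 10.0 CPM in control mice, a log2 fold change of 0.31 (SE 0.19, edgeR adjusted p = 0.753). Ripk1 was at -0.28, or -0.12 without control mouse 3, and Tnfrsf1a at 0.17, and exons of Ripk1 overlap those of Serpinb6a and exons of Fadd those of the antisense gene Faddos. Tradd, which encodes an adaptor of TNF receptor signalling, passed the thresholds only with control mouse 3 as the only control, at 1.34 (SE 0.31, edgeR adjusted p = 0.474).

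Among 22 regulators and partners of the family 15 were lower by sign and 7 higher, with a median log2 fold change of -0.03. Foxo3, which encodes a forkhead factor known to induce Bcl2l11 in several cell types, had 41.9, 36.4 and 49.6 CPM in metformin mice and 55.5, 77.4 and 54.3 CPM in control mice. The groups did not overlap, and the log2 fold change of -0.55 had an SE of 0.20 (edgeR adjusted p = 0.621), or -0.36 without control mouse 2. Stat3, a driver of cell death in involution, was at -0.34 and Fbxw7, which encodes the substrate receptor of a ubiquitin ligase that targets MCL1, at -0.32. Trp63, a transcription factor gene of basal cells, was at -0.31, and all 3 had an unadjusted edgeR p above 0.05.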

How the data were processed

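The deposited counts are whole numbers of reads per gene made by the authors, without normalization between samples, from paired-end reads mapped to GRCm38 (mm10), with HISAT2 and StringTie named in the submitters' processing notes, versions not included. The FPKM values deposited by the authors for these libraries served to set genes against each other and as an alternative. The counting tool, the annotation release and the strandedness were not given in the sources used here.

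Tests on counts used edgeR 4.0.16 in R 4.3.3, with filterByExpr, TMM normalization, the quasi-likelihood F test and Benjamini-Hochberg adjustment over 15925 features. Each SE was obtained as the size of the log2 fold change over the square root of its F statistic. The members and lists were chosen with earlier results of these data known. All 10 members were named, as were the 4 genes of each related list with the smallest edgeR p, any gene of them past the thresholds, the 5 nearest profiles to the member with the smallest p, tissue markers and genes that overlap a member.

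The 20 alternatives were DESeq2 1.42.0, limma-voom (limma 3.58.1) with quality weights, upper quartile and RLE normalization, no low-count filter, at least 10 counts in every sample, no features assembled by the authors, the replicate number as a block, the epithelial or adipocyte marker mean as a covariate, limma on log2(FPKM + 1), on log2(FPKM + 0.1) and on log2(FPKM + 1) of unfiltered values, removal of 1 mouse at a time (6 fits), and control mouse 3 as the only control. The pipeline was run on simulated counts with known changes, as a check of the code only. The simulation held no outlying control mouse, so it cannot speak to the effect of control mouse 3. Gene positions and coding sequences came from GENCODE vM21 (GRCm38), which holds 22022 of the 22036 Ensembl identifiers. An exact permutation test of 3 against 3 mice cannot go below p = 0.1 and was not used.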

Additional observations from a re-analysis of the deposited data

How the results depend on the processing

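At the thresholds 1 of the 10 members was called. It was 0 with the replicate block, the epithelial marker covariate, the adipocyte marker covariate, log2(FPKM + 1) without a filter and control 3 as the only control, and 0 to 1 when each mouse was left out. The 271 calls among all features became 519 with DESeq2, 118 with the replicate block, 147 with the epithelial and 106 with the adipocyte covariate, 165 with log2(FPKM + 1) and 98 without its filter. Leaving out each mouse gave 107 to 666: 107 without control 2, 144 without metformin 1, 177 without control 1 and 666 without control 3. The share of lower calls, 75.3% in the main fit, was 17.5% with control 3 as the only control, 48.6% without metformin 2, 61.9% with the epithelial covariate, 63.6% without control 2, 65.3% with unfiltered FPKM and 85.4% without metformin 1. Of the 63 related genes, 0 were called in the main fit, 0 to 1 with each mouse left out and 1 with control 3 as the only control.

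Of 200 values of the members under the alternatives, 185 kept their direction and side of the thresholds, 10 of Bmf lost the call and 5 changed sign: Mcl1 to -0.010 with log2(FPKM + 1), with and without the filter, and -0.011 with log2(FPKM + 0.1), and Bid to -0.21 with the adipocyte covariate and -0.18 with control 3 alone. With the adipocyte covariate and with control 3 as the only control, Bcl2l15 was at 2.20 and 1.92, Bnip3 at -0.19 and -0.13 and Casp2 at 0.16 and 0.037. Ggnbp1 was at 0.022 with the epithelial covariate, 1.42 with the adipocyte covariate and 1.39 with control 3 alone, and between -0.71 without control 3 and 0.26 without control 2 when a mouse was left out. Bcl2l13 was at -0.077 with the epithelial covariate and -0.025 with control 3 alone, and between -0.015 without metformin 2 and 0.34 without metformin 1 when a mouse was left out. The causes were not tested. Same-numbered mice had correlations of deviations of -0.35, -0.14 and -0.013. With 3 mice per group, whose deviations are tied by the group mean, these values cannot decide whether the numbers pair the mice. With the replicate block Bmf was at -1.44 (edgeR adjusted p = 0.873). The scalings moved the median of all features by less than 0.1. Each member had over 4 CPM in every library, and the comparisons are limited by 3 mice per group with 1 control apart from the others.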
